A study of Homo sapiens with 16 samples.

Results

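The 6 genes ERH, PEPD, ARF5, POLR2C, DDOST and UFD1, which have separate cellular functions, were followed across the 8 m6A-eCLIP libraries of a glioma series. They were chosen from the values themselves, because earlier results of these data had shown large sums of scores under STM2457 and none or nearly none without it. They are 6 of 13084 genes with a called base in any library. The description held exactly for 5 of the 6: ERH, PEPD, ARF5, POLR2C and DDOST had no called base inside their span in any of 6 untreated libraries and had called bases in both treated ones. UFD1 did not, since it had 2 low-scoring called bases in U87 replicate 2 and 1 in U87-R replicate 1. Of all 13084 genes, 169 (1.29%) had no called base in the 6 untreated libraries and at least 1 in both treated ones, and nothing is read from the members' share because the pattern chose them.

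The libraries came from U87 MG (U87), an established human glioma line, from U87-R, a single derivative of it that resists temozolomide (TMZ), and from U87-R given the METTL3 inhibitor STM2457, which blocks the enzyme that writes m6A. U87 (3 libraries) and U87-R (3 libraries) carried a DMSO control label, and the treated U87-R cells (2 libraries) received 50 µM STM2457 for 96 hours. Per the labels, the medium of U87-R cells, treated or not, held 50 µM TMZ, and that of U87 cells did not. Each library is a list of called bases with genome positions, strands and scores, and the sources used here do not say how a score was computed. The lists hold neither reads nor coverage, so depth is unknown, bases absent from a list are without a value, and no level of methylation can be computed. The input libraries were not analysed here, so more RNA and more modification of each RNA cannot be told apart. The labels do not say that replicates were separate cultures, so the spread below may be technical.

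N6-methyladenosine (m6A) is placed on internal adenosines of messenger RNA by a complex with METTL3 as its catalytic subunit, and it lies mostly in long exons and near stop codons. A related mark, m6Am, sits on the first transcribed base beside the cap, is written by a different enzyme, PCIF1, and is also bound by antibodies raised against m6A. The assay read here does not tell one mark from the other, so which modification a called base carries was not measured.

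The treated libraries were the shorter lists, with 105900 and 110875 called bases against 149477 to 192697 in the untreated libraries. The part of the bases given to a gene that lay within 50 nt of its annotated 5′ end was 16.6% and 15.9% in the treated libraries and 6.08% to 8.09% in the untreated ones. Their number was higher too, with 15001 and 14991 such bases in the treated libraries and 8318 to 11397 in the untreated ones. Of 8 markers chosen for a glioma line, 6 had a called base in some library (GFAP and S100B had none), and of 3 markers of other cells 1 did, PECAM1 (mean sums of 7.62 to 25.5 by group). An m6A list is no measure of expression, so an absent marker says little about the cells. METTL3 itself stood at a sum of scores of 187 ± 66.8 in U87-R (SD, n = 3) and 147 ± 19.2 with STM2457 (SD, n = 2; limma, Benjamini-Hochberg adjusted p = 0.539). STM2457 acts on the enzyme, so this value does not check the treatment.

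Sequence is shown for the gene starts of ERH, PEPD, ARF5 and POLR2C, where most of their treated score lay, and for the bases before the start of DDOST, where untreated libraries had calls too. Distances are counted from the annotated 5′ end on the gene's own strand, with 0 for the first base and negative numbers upstream. Start-site sequences came from RefSeq (GRCh38.p14, the coordinates of hg38) for 5 of the 6 genes, UFD1 being the exception. Each line gives 30 bases 5′ to 3′, and capitals mark the bases called in both treated libraries.
ERH, distances 0 to 29 (chr14:69398270-69398299, minus strand): gttgTAgtTAagctcgtgtaacggcggcgg
ERH, distances 20 to 49 (chr14:69398250-69398279, minus strand): acggcggcggtgtcggCagctgctgtagcg
PEPD, distances 0 to 29 (chr19:33521762-33521791, minus strand): gCACttCAcgtgacgccggtgccgggcgaa
ARF5, distances -45 to -16 (chr7:127588366-127588395, plus strand): cgtcgggagggCAgcgacgcgcggaggcgg
ARF5, distances 10 to 39 (chr7:127588421-127588450, plus strand): tgcgccccAtccccccgcggccggcCAGtt
POLR2C, distances -4 to 25 (chr16:57462675-57462704, plus strand): ccgcgCAgtcaccgcggagCAGacgcggag
DDOST, distances -92 to -63 (chr1:20661432-20661461, minus strand): gtatcccgatCActtccgggtagtgctcca
DDOST, distances -40 to -11 (chr1:20661380-20661409, minus strand): taccgTAgatggggtacttccggtgtgcaC

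Calls came in short runs, mostly an A together with the C or T before it. Inside the spans of ERH, PEPD, ARF5 and POLR2C, 23 bases at distances up to 37 were called in at least 1 treated library, and 9 of these were A, 8 C, 3 G and 3 T. All 23 were an A or lay next to one. Over the start sequences of all genes, 88.6% and 89.5% of the called bases in the treated libraries and 87.7% to 89.1% in the untreated ones were an A or lay next to one, against 41.0% of all letters in the 5111 start sequences with a call. The called base itself was A for 54.1% to 55.8% of calls in every library, where 17.0% of letters were A. The members' called bases were thus near an A at least as often as calls at starts in general. Fewer were an A themselves (9 of 23) and more a C (8 of 23, against 16.8% to 18.4% of calls by library). The 23 join the calls of both treated libraries, while the percentages are by library, so the counts are unlike. The difference was not tested. Bases side by side are not separate measurements: in 14 of 55 adjacent pairs of the 6 genes within a treated library, both bases had the same score to within 0.01. No base at distance 0, the first annotated base, was called in any of the 6 genes.

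**Figure D1:**
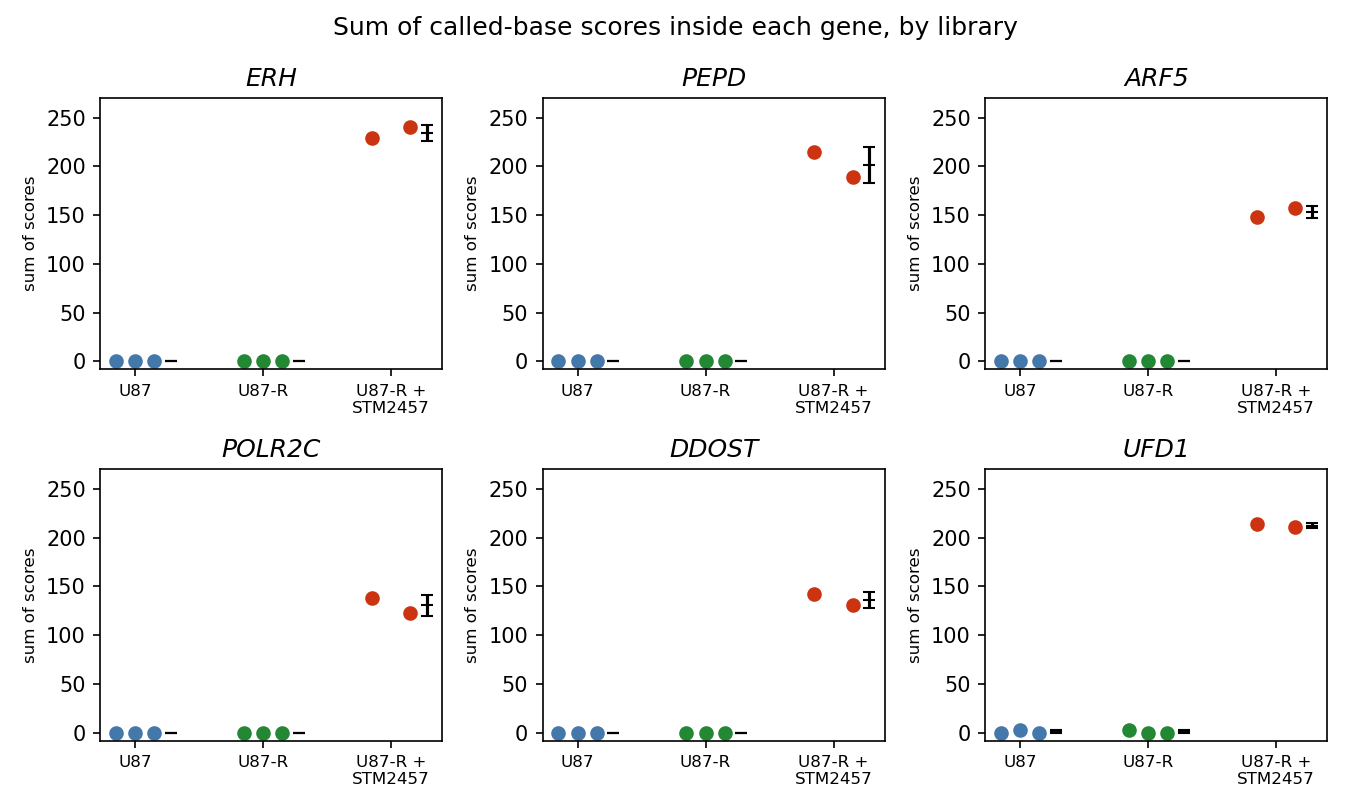
Sum of the scores of called bases inside the span of each gene (vertical axis, no unit) for the 3 U87, 3 U87-R and 2 STM2457-treated U87-R libraries; points are libraries, and the bar beside them is the mean with its SD. The untreated libraries of ERH, PEPD, ARF5, POLR2C and DDOST are drawn at 0 because no base was listed, and the highest untreated value of UFD1 is 3.17.

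ERH encodes a small conserved nuclear protein that binds splicing and RNA-processing factors. It lies on chromosome 14 from 69380128 to 69398299 (hg38, minus strand). No base of ERH was called in any U87 or U87-R library, and the treated libraries listed 11 and 13 bases with sums of 229 and 240 (mean 234 ± 7.97, SD, n = 2). The treated sums differed little from each other, and the untreated libraries were empty. Of these sums, 64.2% in the first library and 65.0% in the second came from within 50 nt of the 5′ end. The bases at distances 4, 5, 8 and 9 scored 24.6, 24.6, 24.7 and 24.7 in the first treated library and 34.3, 34.3, 34.4 and 34.4 in the second. These are the paired TA letters at the front of the ERH sequence above. A second pair stood at distances 36 and 37, with scores of 24.1 at both in the first library and 10.7 at distance 36 alone in the second. The remaining 35.4% of the summed score lay at distances 3385 to 3406, where 5 of 7 bases were called in both libraries. The 5′ end of SLC39A9, read from the other strand, begins 85 nt past that of ERH, and GALNT16 overlaps ERH on the other strand.

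PEPD encodes prolidase, which splits dipeptides with a proline at their end and so helps to recover proline from collagen breakdown. It is the longest of the 6 genes, with 134842 bases on chromosome 19 (33386950 to 33521791, minus strand). It had no called base in the untreated libraries and 9 and 13 in the treated ones, with sums of 215 and 189 (mean 202 ± 18.5, SD, n = 2). The same 5 bases at distances 1 to 7 were called in both treated libraries and held 67.7% and 80.2% of the sums. The A at distance 2 scored 36.9 and 42.7, and the C before it at distance 1 had the same scores. A group of 3 bases at distances 9071 to 9078 summed to 62.5 in the first treated library and 27.2 in the second. The remaining 5 bases, at 9021 to 9025, summed to 6.76 and 10.1, and 1 of them was called in both libraries. The stretch at 9071 to 9078 therefore differed between the treated libraries more than the bases at the start did.

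ARF5 encodes a small GTPase that recruits coat proteins to membranes of the Golgi. It is the shortest of the 6, with 3290 bases on chromosome 7 (127588411 to 127591700, plus strand). The treated libraries listed 10 bases each, with sums of 148 and 158 (mean 153 ± 6.50, SD, n = 2), and no untreated library listed any. Bases at distances 17 to 37 held 64.5% of the treated score, led by the A at distance 36 with 40.1 and 29.8. The other bases were scattered from distance 114 to 2593, and of these 8 the ones at 1661 and 1712 were called in both libraries. A further pair of bases lay before the annotated start, at 34 and 33 nt upstream, with scores of 35.4 at both in the first treated library and 28.3 at both in the second. They too were in no untreated list. The bases from distance 1649 onward also lie in the span of LOC105375489, a noncoding RNA whose strand the gene table does not give, and LOC105375490 is read from the other strand across the start of ARF5. With 100 nt added before the 5′ end, the treated mean of ARF5 became 217.

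POLR2C encodes RPB3, a subunit of RNA polymerase II that takes part in assembling the enzyme. It lies on chromosome 16 (57462679 to 57472009, plus strand), with 6 and 10 called bases and sums of 138 and 123 in the treated libraries (mean 131 ± 10.5, SD, n = 2) and none in the untreated ones. The 5 bases at distances 1, 2, 15, 16 and 17 were called in both treated libraries and made up 95.0% and 69.0% of the sums. Their scores agreed less well than the sums did. The base at distance 15 scored 34.3 and 4.95, the one at distance 2 scored 30.7 and 5.67, and those at distances 1 and 17 scored 30.7 and 34.2, and 34.3 and 28.8. A run of 5 bases at distances 7599 to 7606 was called in the second treated library alone, with a sum of 38.1. DOK4 overlaps the far end of POLR2C on the other strand.

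**Figure D2:**
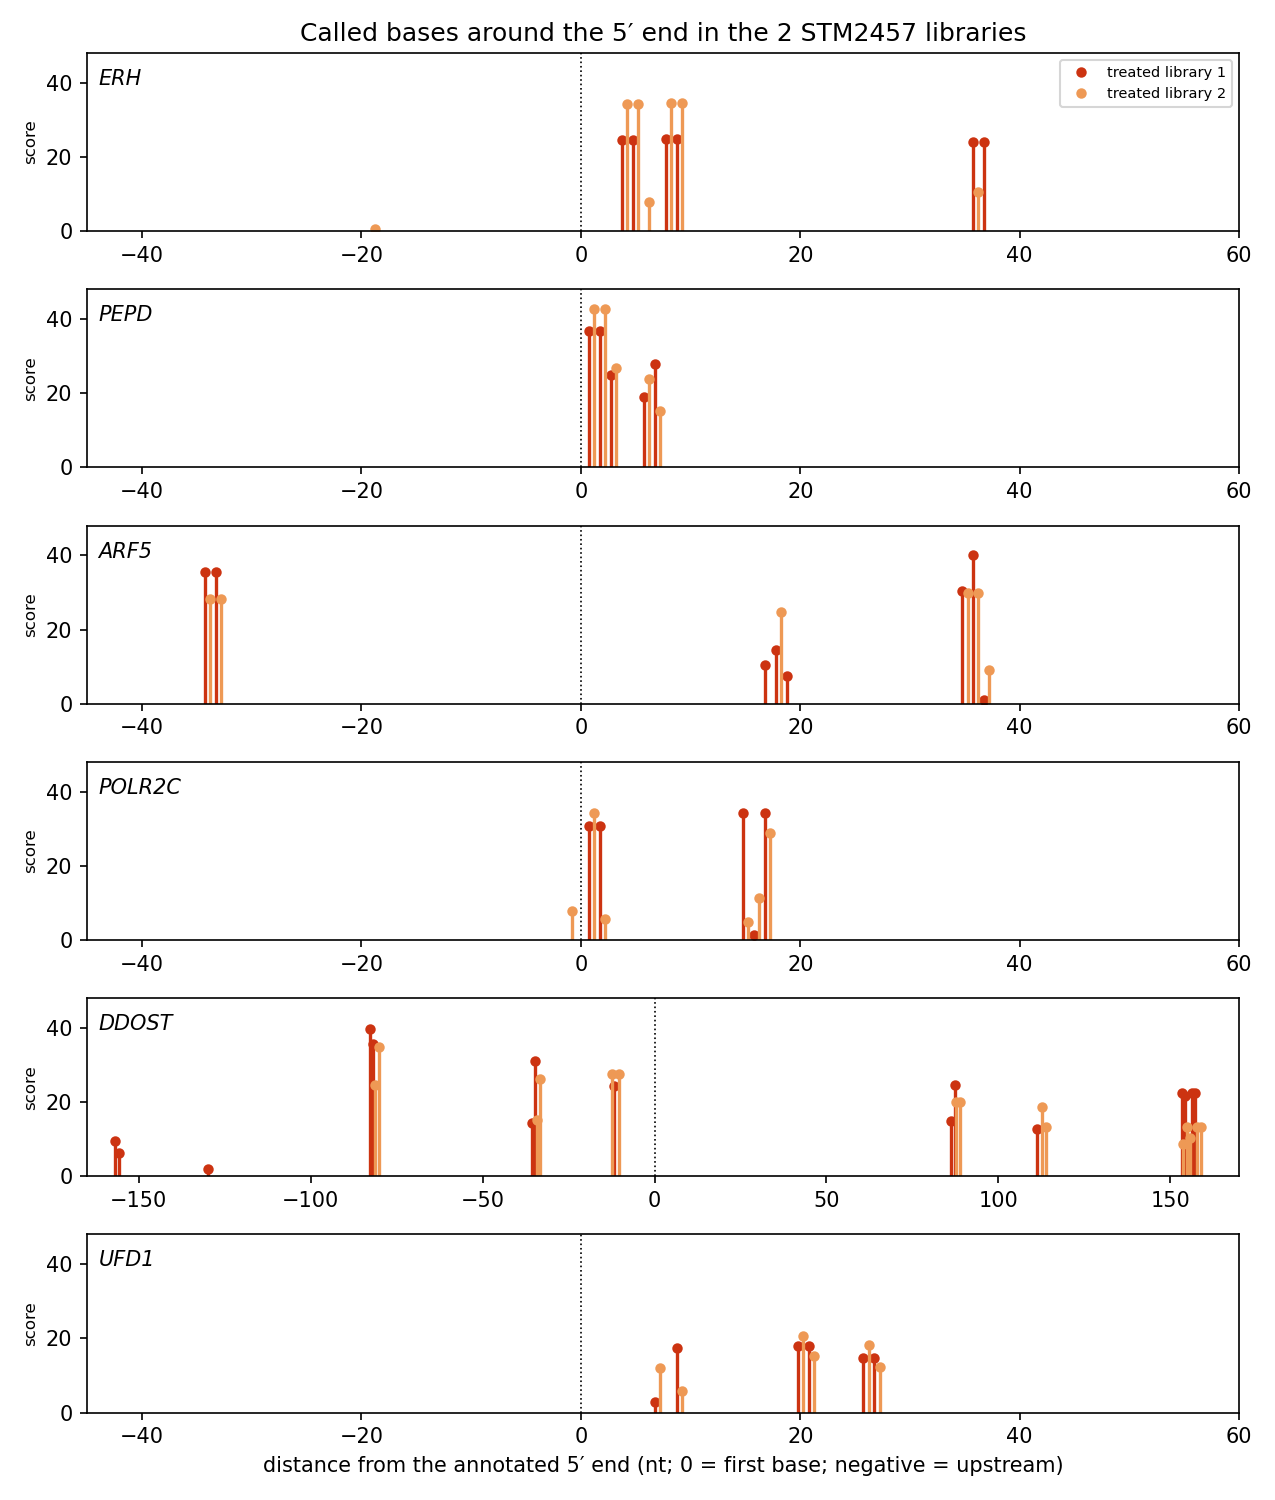
Score of each called base (vertical axis) against its distance from the annotated 5′ end in nucleotides (horizontal axis, wider for DDOST) in treated libraries 1 and 2, one panel per gene. ERH, PEPD, POLR2C and UFD1 have calls within 7 nt of the start, ARF5 has none that near but calls on both sides of it, and the calls of DDOST inside its span begin at distance 87.

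UFD1 encodes a partner of NPLOC4 that guides the ATPase VCP to ubiquitin-marked proteins. It lies on chromosome 22 (19449911 to 19479193, minus strand). The treated libraries listed 12 and 13 bases with sums of 214 and 211 (mean 212 ± 2.16, SD, n = 2). Without STM2457 the sum was 2.84 in U87 replicate 2 and 3.17 in U87-R replicate 1, and no base was listed in the other 4 libraries. The low untreated calls were at distances 25060 and 25062, where neither treated library had a call. All of the 6 bases called at distances 7 to 27 were called in both treated libraries, and they held 39.9% of the treated score. The highest of them, at distance 20, scored 18.0 and 20.7. A stretch of 4 bases at distances 23424 to 23435 held more, 52.3% of the treated score, and its base at 23425 had the highest score among the members' bases in each treated library, 45.7 and 49.7. One more group, at 21096 to 21107, held 7.51%. UFD1 thus differed from ERH, PEPD, ARF5 and POLR2C in having most of its score far from the start.

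DDOST encodes a subunit of the oligosaccharyltransferase that attaches sugar chains to proteins entering the endoplasmic reticulum. It lies on chromosome 1 (20651777 to 20661369, minus strand). Inside its span no untreated library had a call, and the treated libraries listed 7 and 9 bases with sums of 142 and 130 (mean 136 ± 7.94, SD, n = 2). None of these bases lay within 50 nt of the annotated 5′ end. They formed groups at distances 87 to 88, 112 to 113 and 153 to 158, which held 29.2%, 16.4% and 54.4% of the score. The base at distance 88 scored 24.5 and 20.1, and the one at 157 scored 22.6 and 13.2.

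Just before its annotated start DDOST was called without STM2457 as well. Within 300 nt upstream on the same strand, U87 replicates 1, 2 and 3 listed 0, 7 and 6 bases, U87-R replicates 1, 2 and 3 listed 2, 3 and 5, and the treated libraries 8 and 6. Their sums were 69.8 and 44.1 in U87 replicates 2 and 3, 6.63, 37.7 and 27.1 in the U87-R replicates, and 163 and 156 in the treated libraries. Every treated sum was above every untreated one, but 5 of the 6 untreated libraries were not empty. The A at 81 nt upstream, in capitals in the first DDOST sequence, scored 19.1 and 17.6 in U87 replicates 2 and 3, 18.7 and 5.84 in U87-R replicates 2 and 3, and 35.7 and 34.8 with STM2457. With 100 nt added before the 5′ end, the treated libraries of DDOST had a mean sum of 286 ± 0.325 (SD, n = 2). U87-R then had 16.5 ± 19.3 and U87 31.4 ± 30.5 (SD, 3 libraries per line), so the untreated spread was as large as the untreated mean. KIF17, read from the same strand, ends 261 nt before the annotated start of DDOST, and its part in these bases was not tested. DDOST was therefore called under STM2457 alone only inside its annotated span, and such upstream calls in an untreated library were found for 17 of the 169 genes (10.1%). ERH, PEPD, ARF5, POLR2C and UFD1 had no untreated call within 300 nt upstream.

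**Figure D3:**
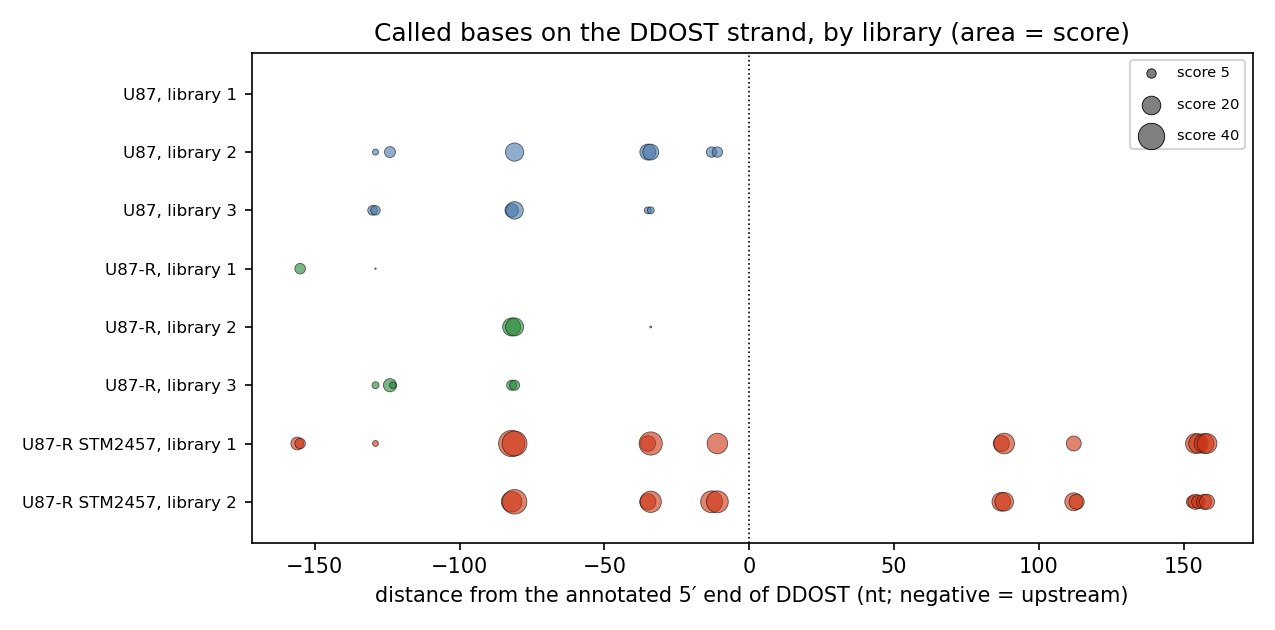
Called bases on the strand of DDOST in each of the 8 libraries (rows) by distance from its annotated 5′ end in nucleotides, with the area of a point in proportion to the score. Left of the dotted start line 5 of 6 untreated libraries have calls, and right of it the treated libraries alone do.

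Between the treated libraries the sums of a gene were close, while the genes differed among themselves in where that score lay. The SD of the treated sums was at most 18.5, that of PEPD, and the agreement of single bases was lower. Of the bases called in either treated library, 10 of 14 were in both for ERH, 9 of 13 for PEPD, 6 of 14 for ARF5, 5 of 11 for POLR2C, 7 of 9 for DDOST and 11 of 14 for UFD1. ARF5 and POLR2C had the lowest shares in common. The ARF5 bases in 1 treated library alone were mostly scattered ones, with those at distances 17 and 19 beside them. In POLR2C they were the run at 7599 to 7606 and the base at 9056. Over the 6 genes, 75 bases were called in either treated library and 48 (64.0%) in both, against 41.7% of the 153000 bases called in either treated library over the whole genome. The members were chosen for high treated sums, so this difference is a description.

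**Figure D4:**
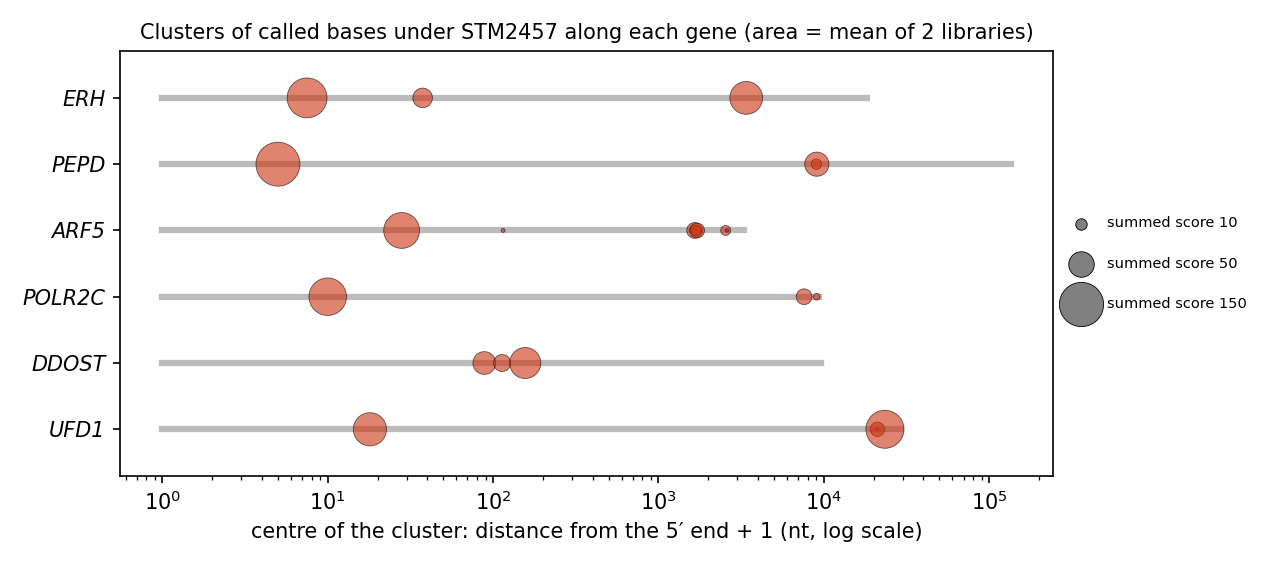
Groups of called bases no more than 20 nt apart under STM2457, placed by distance from the 5′ end (log scale) along each gene (grey bar, its annotated length), with area in proportion to the summed score (mean of both treated libraries). ERH, PEPD, ARF5 and POLR2C have their largest group near the start, UFD1 at distances 23424 to 23435 and DDOST at 153 to 158.

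The authors' deposited lists, which join the libraries of a group, held few of these bases. In the authors' deposited table of reproducible sites for STM2457, 2 entries lay in a member, both in PEPD, at distance 2 with a score of 39.7 and at distance 7 with 20.5. One more lay 34 nt upstream of DDOST, with 28.5. The authors' deposited table of reproducible peaks had 3 entries in PEPD, at distances 2 to 43, 44 to 48 and 9062 to 9088, and 1 in UFD1, at 23445 to 23513, beside the bases at 23424 to 23435 but not over them. It had 2 upstream of DDOST, from 80 to 62 and from 61 to 17 nt before the start. ERH, ARF5 and POLR2C had no site and no peak there, and none of the 6 genes had an entry in the lists for U87 or U87-R. Of 35 bases of the 6 genes with a score of at least 10 in both treated libraries, 2 (5.7%) were on the site list and 6 (17.1%) lay in a peak. All of these were in PEPD, where 2 of 7 such bases (28.6%) were on the list and 6 (85.7%) lay in a peak. In ERH, ARF5, POLR2C, DDOST and UFD1 no such base was on the list or in a peak. Over the whole genome 12791 of 35817 such bases (35.7%) were on the list and 67.2% lay in a peak, and within 50 nt of a gene start it was 42.3% and 70.1%. Nearly all of the members' calls, and outside PEPD all of those inside the spans, thus rest on the lists of single libraries. Why they are missing from the joined lists was not tested.

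Among the 169 genes with calls in both treated libraries and in no untreated one, ERH, PEPD, ARF5, DDOST and POLR2C ranked 1, 2, 4, 5 and 6 by treated sum (not divided by gene length), and the median of the 169 was 18.1. More than 50% of the treated score lay within 50 nt of the start in 60 of the 169 genes (35.5%), among them ERH, PEPD, ARF5 and POLR2C, while 91 (53.8%) had none there, like DDOST. The same shares over all genes with treated calls are not given here, so nothing is read from these. The 5 genes nearest in pattern, taken as those with the largest treated sums on an annotated strand, were RBX1, a subunit of cullin ubiquitin ligases (124 ± 11.1), CRELD2, a protein of the endoplasmic reticulum (105 ± 14.4), TMEM208 (92.0 ± 63.0), the coatomer subunit COPZ1 (90.9 ± 25.0) and the sorting nexin SNX2 (90.5 ± 8.17; SD, n = 2 each). Within 50 nt of the start lay 75.2% of the score of RBX1, 100% of CRELD2, 28.5% of TMEM208, 94.8% of COPZ1 and 0% of SNX2. The rule left out CAGE1 (175 ± 63.2), UQCRB (130 ± 42.1) and LOC124902020 (105 ± 2.34; SD, n = 2 each). Their strands came from called bases, as that of UFD1 did, and 0% of their score lay within 50 nt of the start. By a rule that leaves U87 aside, and so is not the mirror of the one above, 401 genes (3.065%) lost their calls. They had a call in all 3 U87-R libraries and none in either treated one.

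**Figure D5:**
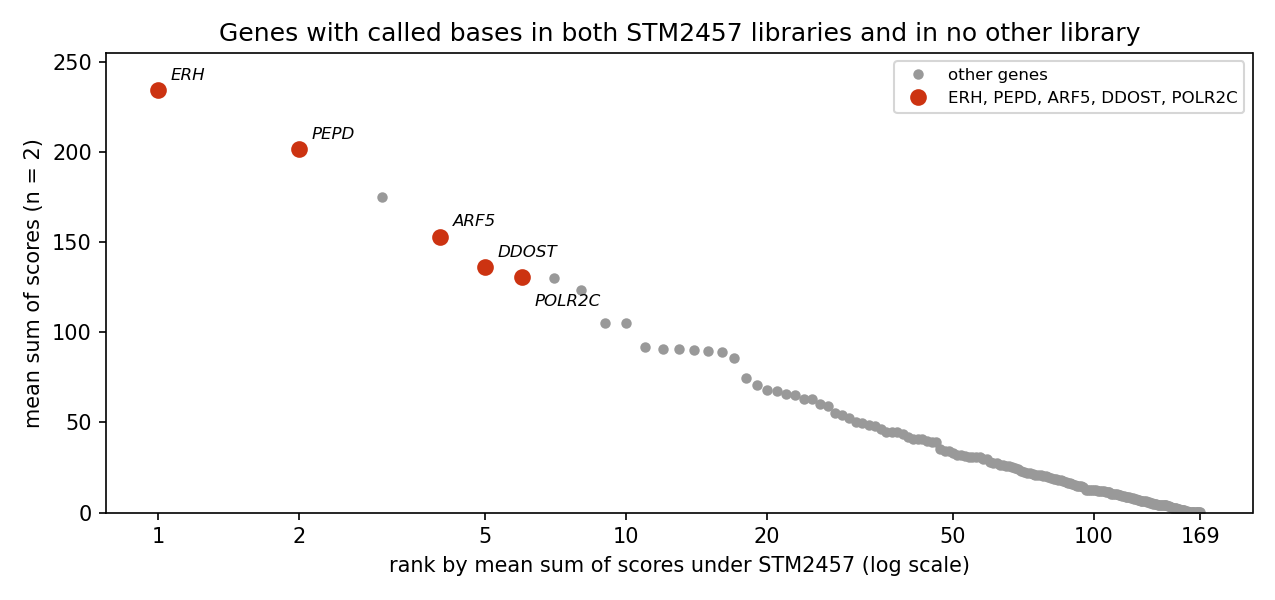
The 169 genes with called bases in both treated libraries and in no untreated library, by rank (horizontal axis, log scale) and mean sum of scores under STM2457 (vertical axis, n = 2). ERH, PEPD, ARF5, DDOST and POLR2C hold 5 of the first 6 ranks, and the median of all 169 is 18.1.

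Partners of the members in their complexes and families were compared between STM2457 and U87-R, to see what the same treatment did beside them. Over all 10517 genes tested with limma on log2(sum + 1), 37.8% were lower and 6.29% higher with STM2457 at an adjusted p under 0.05, with a median change of -0.68 (log2). The median change was -0.652 without the first treated library and -0.712 without the second. Far fewer genes were then called higher, and fewer lower. Such a fit holds 1 treated library, and the genes tested fell to 10263 and 10270. The cause of the fall in calls was not tested. Of 40 tested genes in 6 lists of partners, 12 were lower and 6 higher, with a median change of 0.07. Among the higher ones, POLR2B, UBXN1 and XPNPEP1 reached the sum of 10 needed for testing in the treated libraries alone. Their calls are therefore a description and not support. With each library centred on its median, 10 of the 40 were lower and 15 higher. With equal library totals 8 were lower and 18 higher, so the balance of the lists turned with the scaling. Over all genes tested, centring gave 2548 lower and 1612 higher of 10517. Equal totals gave 2214 lower and 1928 higher of 10549. The share of higher ones among all genes called went from 14.3% to 38.8% and 46.5% under these scalings.

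The RNA polymerase II subunits beside POLR2C moved in both directions. Of 9 tested, POLR2D and POLR2H were lower and POLR2B and POLR2F higher, and 2 were lower and 6 higher under either scaling. POLR2D fell from 527 ± 86.0 (SD, n = 3) to 201 ± 5.55 (SD, n = 2; limma adjusted p = 0.000679). POLR2B, the second-largest subunit, was nearest to POLR2C in its values, with 2.05 ± 3.55 in U87-R and 79.5 ± 2.82 with STM2457. It was tested only because of its treated sums, so its call is a description. Of 7 tested oligosaccharyltransferase subunits beside DDOST, STT3B and OSTC were lower and none higher (the same 2 lower and MAGT1 higher under either scaling). STT3B, a catalytic subunit, fell from 491 ± 73.8 to 197 ± 6.22 (limma adjusted p = 0.000541).

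Among VCP and the cofactors tested with it (7 genes), VCP, NPLOC4 and UBXN7 were lower and UBXN1 and UBXN6 higher. UBXN1 is among the 169 genes called in treated libraries alone (20.8 ± 5.41 with STM2457, SD, n = 2), so its call is a description. NPLOC4, the direct partner of UFD1, fell from 1217 ± 105 to 439 ± 3.53 (limma adjusted p = 0.000128), while UFD1 had sums above 210 in the treated libraries and at most 3.17 without treatment. FAF2, with the largest U87-R sum of that list, stood at 1232 ± 121 and 970 ± 50.5 (limma adjusted p = 0.115). Its change of -0.34 (log2) turned to 0.21 with centring and to 0.35 with equal totals, where it was called higher (limma adjusted p = 0.0371) and UBXN7 was no longer called (0.0533). Of 3 tested ARF GTPases beside ARF5, ARF6 alone passed the test without scaling, with 1542 ± 172 and 877 ± 2.47 (limma adjusted p = 0.00119). That call was lost with centring (limma adjusted p = 0.277) and with equal totals (0.522), and ARF1 and ARF3 were instead called higher (limma adjusted p = 0.00587 and 0.0297 with centring, 0.00266 and 0.0203 with equal totals). The list thus went from 1 lower to 2 higher. Of 7 proline peptidases beside PEPD, DPP7 and XPNPEP3 were lower and XPNPEP1 higher, and the call of DPP7 was lost under both scalings too (limma adjusted p = 0.00809, then 0.704 and 0.932). XPNPEP1 (0 in U87-R, 15.95 with STM2457) was tested only because of its treated sums. Of 7 tested genes of ERH partners and the microprocessor, DGCR8 and POLDIP3 were lower and SAFB2 higher. DGCR8, which pairs with DROSHA in microRNA processing, went from 427 ± 214 to 117 ± 73.2 (limma adjusted p = 0.029, and 0.0945 with equal library totals). DROSHA stood at 3.71 ± 5.67 and 43.6 ± 22.4 (limma adjusted p = 0.0552), and it was called higher with centring (0.0344) and with equal totals (0.0333). SAFB was called higher under both scalings as well (limma adjusted p = 0.00588 and 0.00699, against 0.0763 without scaling). With equal totals alone, DPP8 and CIZ1 were called higher too. The plan was to name up to 3 genes of a list, those with the largest U87-R sums. Others were named after their values were seen. By that plan POLR2L, POLR2J and PREP belonged here too, and none was called without scaling (limma adjusted p = 0.888, 0.191 and 0.0568). POLR2L and POLR2J were called higher under both scalings, and PREP under neither. Between U87-R and U87, where 1.26% of all genes tested passed (0.894% higher and 0.371% lower), none of the 40 did.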

How the data were processed

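Reads were handled with cutadapt, UMI-tools and STAR on hg38, per the submitters' processing notes; the sources used here do not give versions, settings or callers. Each library's deposited list has called bases with a score, and each group has the authors' lists of reproducible sites and peaks with a fraction of libraries and a score. Tested on all 1233307 deposited entries, the score is the smallest of the 4 scores listed beside it. The members and gene lists were chosen with earlier results of these data known. RefSeq spans (GRCh38.p14) were used, with strands from the annotation for 27302 genes and from called bases for 1790, UFD1 among them (at least 5 bases in its span alone, 80% on 1 strand). Bases went to protein-coding before noncoding genes, and 87.0% of 452349 were given to 1 gene. Sums of scores per gene were fitted with limma 3.58.1 (R 4.3.3) on log2(sum + 1) with a mean-variance trend, 3 group means, no scaling, and Benjamini-Hochberg adjustment over the 10517 genes whose sum reached 10 in 2 or more libraries, after a check on simulated data. The members got no test, as they were chosen on that comparison. Named partners were to be up to 3 per list, those with the largest U87-R sums. Genes most like the members were to be those with the largest treated sums on an annotated strand. Exceptions are stated. Deviations of same-numbered U87 and U87-R libraries from their group means correlated at 0.101, 0.316 and 0.108, each over the 0.1 taken to mark pairing. Differently numbered libraries reached 0.121 (U87 1 with U87-R 3) and 0.144 (U87 3 with U87-R 1), so pair 2 alone stood apart. For STM2457 and U87-R the values were -0.02 and -0.023, both under 0.1. With 2 treated libraries the deviations mirror each other, so matched and unmatched values are tied and this check is weak. Alternatives were the pseudocount, the filter, the scaling, the block, a score of at least 10, the span, both strands and leaving out each library.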

Additional observations from a re-analysis of the deposited data

How the results depend on the processing

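Counting both strands moved none of the treated sums of the 6 genes by more than 1 SD. With 2 treated libraries, leaving out either returns the value of the other and shows nothing of stability. With bases scoring at least 10 alone, 4 of the 6 moved by more than 1 SD, with 100 nt added upstream ARF5 and DDOST did (286 for DDOST, and 295 with 300 nt, a length chosen after seeing the data), and with equal library totals all 6 did. Genes called between STM2457 and U87-R numbered 4641, and 3023 to 5149 when a library was left out (3970 with the replicate number as a block, where DGCR8, POLR2F and UBXN6 were no longer called and DROSHA was, at an adjusted p of 0.0321 in limma); the lowest, without U87-R STM2457 replicate 1, leaves 1 treated library, assumed to vary like the other groups, and drops genes called in treated libraries alone. Between U87-R and U87, 133 genes were called, 68 with the replicate number as a block, and 67 to 192 when a library was left out (76 without U87 replicate 1, 69 and 67 without U87-R replicates 1 and 3, 73 and 68 without U87-R STM2457 replicates 1 and 2); the cause was not tested. Scores carry no depth, so whether the untreated libraries could have listed the members' bases is not known.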
